A study of Mus musculus with 12 samples.

Results

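Pleiotrophin (Ptn), midkine (Mdk), the receptors Ptprz1 and Alk, the syndecans Sdc1, Sdc2 and Sdc4 and the glypicans Gpc1, Gpc3 and Gpc4 were followed from mouse embryonic stem (ES) cells into embryoid bodies. The 10 genes were represented by every probe set of the Affymetrix mouse 430 pair of chips, MOE430A and MOE430B (here chip A and chip B), that is annotated to exactly 1 gene and carries 1 of these symbols. This gave 22 probe sets of 45137 non-control probe sets, 19 on chip A and 3 on chip B, and 10 of the 18193 genes that have such a probe set. Ptn was chosen by its measured signals, for a large rise on chip A, so its values are given as a description without a test, and the other 9 genes were grouped around it with results of these arrays known.

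The embryoid bodies (EB) were cell aggregates of the J1 mouse ES line kept for 5 days in bacterial Petri dishes, in medium with 10% serum. The ES cells were J1 cells kept for 2 days on 0.1% gelatin in medium that also held 10% serum, and with leukemia inhibitory factor, β-mercaptoethanol and sodium pyruvate, which the EB medium lacked. No genotype beyond the line name and no other agent is given for either group. Each state had 3 samples, each hybridized to both chips, and the labels do not say whether the 3 were grown apart, so the p-values speak of the variation among these 3 preparations only, and part or all of it could be technical. The ES samples were judged by eye to be 95% pure, with DR4 feeder cells, the fibroblasts on which ES cells are grown, named as the contaminant, and no purity is given for the EB samples.

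Pleiotrophin and midkine are the only members of a family of small secreted proteins that bind heparin and heparan sulfate. They act as growth and survival factors in the embryo and nervous system, and midkine was found as a gene induced by retinoic acid in embryonal carcinoma cells. Syndecans span the membrane and glypicans are tied to it by a lipid anchor. Both carry heparan sulfate chains that hold growth factors, among them the FGF, WNT and Hedgehog proteins, at the surface of cells.

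The arrays give MAS5 signals on a linear scale, scaled by the authors to a common trimmed mean. Array medians lay between 589 and 681 on chip A and between 913 and 1001 on chip B. With 3 arrays for each state on a chip, precision is limited by that number. Differences are on the log2(signal + pseudocount) scale, EB minus ES, with a pseudocount of 137 on chip A and 253 on chip B, which understates the changes of dim probe sets. A probe set is said to have risen or fallen in EB where the limma adjusted p (Benjamini-Hochberg over all probe sets of its chip) was under 0.05. By this rule 3.39% of the 22626 probe sets of chip A were higher in EB and 2.91% lower, and on chip B 5.78% and 4.91%. All arrays of a group and chip came from 1 chip lot that the other group did not share, and no scan day of either chip held arrays of both groups, so lot and scan day cannot be told apart from the culture state. On chip A the EB arrays were scanned on 3 days and the ES arrays on 1 other day. With scan day as a random block there, the limma adjusted p was 0.00119 for Mdk, 9.69e-04 for Gpc3 and 0.0137 for Sdc4 1448793_a_at. Each EB array had its own day and the ES arrays shared 1. The day correlation of this fit therefore rested on the spread among EB arrays set against that among ES arrays. The fit does not separate the day from the state.

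The labels were checked against marker genes. Pou5f1, the transcription factor at the centre of pluripotency, stood at 7688 ± 236 in EB and 14603 ± 1879.9 in ES cells (SD, n = 3 each, limma adjusted p = 0.00783). Of 14 pluripotency markers 11 fell in EB and 0 rose, against 4.38% lower and 4.42% higher among 18193 genes with 1 probe set each. Their summed signal ran from 55341 to 71988 in EB arrays and from 137024 to 229151 in ES arrays. The other 3 did not pass the limma test. They were Nanog (log2 difference -0.16, adjusted p = 0.570), Sox2 (-0.07, adjusted p = 0.892) and Tfcp2l1 (-1.36, adjusted p = 0.143). Fgf4, a growth factor that ES cells secrete, had the largest fall of the list, 7.75-fold (adjusted p = 3.95e-04). Zfp42, a marker of naive ES cells, fell 3.36-fold (adjusted p = 0.0298). Its call was lost on leaving out any array other than ES replicate 3, with adjusted p values up to 0.114. The lowest ES sum of the pluripotency markers, 137024, was that of ES replicate 3, against 194136 and 229151 in ES replicates 1 and 2. Whether that sample differed from the other ES samples was not tested.

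By its chip A probe sets, on whose rise it was chosen, Ptn had the largest log2 differences of the 10 genes. Its chip B probe set had one smaller in size than those of Mdk, Gpc3 and Sdc4 1448793_a_at. Sdc1 1437279_x_at and Sdc2 1417012_at, which had no call, also had larger ones in size. By probe set 1416211_a_at Ptn had signals of 1765, 2626 and 2984 in EB arrays, against 83.8, 67.5 and 140.3 in ES arrays. By 1448254_at it had 2097, 1876 and 2947 in EB arrays, against 234, 88.5 and 229 in ES arrays. The lowest EB signal of either probe set was several times the highest ES signal, and 3 of the 6 ES values were below the pseudocount. The group means were 2458 ± 626 in EB and 97.2 ± 38.2 in ES cells for the first (SD, n = 3), a log2 difference of 3.45 ± 0.29 (SE) or 10.9-fold. For the second they were 2307 ± 565 and 184 ± 82.6, a log2 difference of 2.94 ± 0.30 or 7.68-fold. Ordered by this difference, the probe sets stood at places 4 and 9 of 22626 on chip A. In whole cultures a larger share of cells with a transcript and more of it per cell cannot be told apart. Because the ES signals were so low, these folds depend on the pseudocount: with a pseudocount of 1 the log2 differences were 4.68 and 3.74, and with the chip median they were 2.07 and 1.85.

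A further Ptn probe set, 1443173_at on chip B, gave a smaller difference from a clear ES signal. It had 5329, 6313 and 4665 in EB arrays, against 3129.9, 3238 and 2694 in ES arrays. The groups did not overlap, and the log2 difference was 0.79 ± 0.21 (SE), or 1.73-fold. The 3 probe sets of Ptn therefore agreed in direction and not in size. Whether they read the same transcripts was not tested, and signals of the 2 chips are not on a common scale.

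Mdk, the other ligand of the family, rose with Ptn. Its probe set 1416006_at had signals of 20780.4, 18786 and 23556 in EB arrays, against 5282, 7302 and 8834 in ES arrays. Every EB array was above every ES array, as for 13.1% of all probe sets of chip A. The means were 21041 ± 2396 in EB and 7139 ± 1782 in ES cells (SD, n = 3), a log2 difference of 1.57 ± 0.19 (SE) or 2.96-fold, with a limma adjusted p of 0.00295. On leaving out each array in turn the log2 difference stayed between 1.37 and 1.73 and the adjusted p reached at most 0.0177. Unlike those of the chip A probe sets of Ptn, the ES signals of Mdk were far above the pseudocount.

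**Figure D1:**
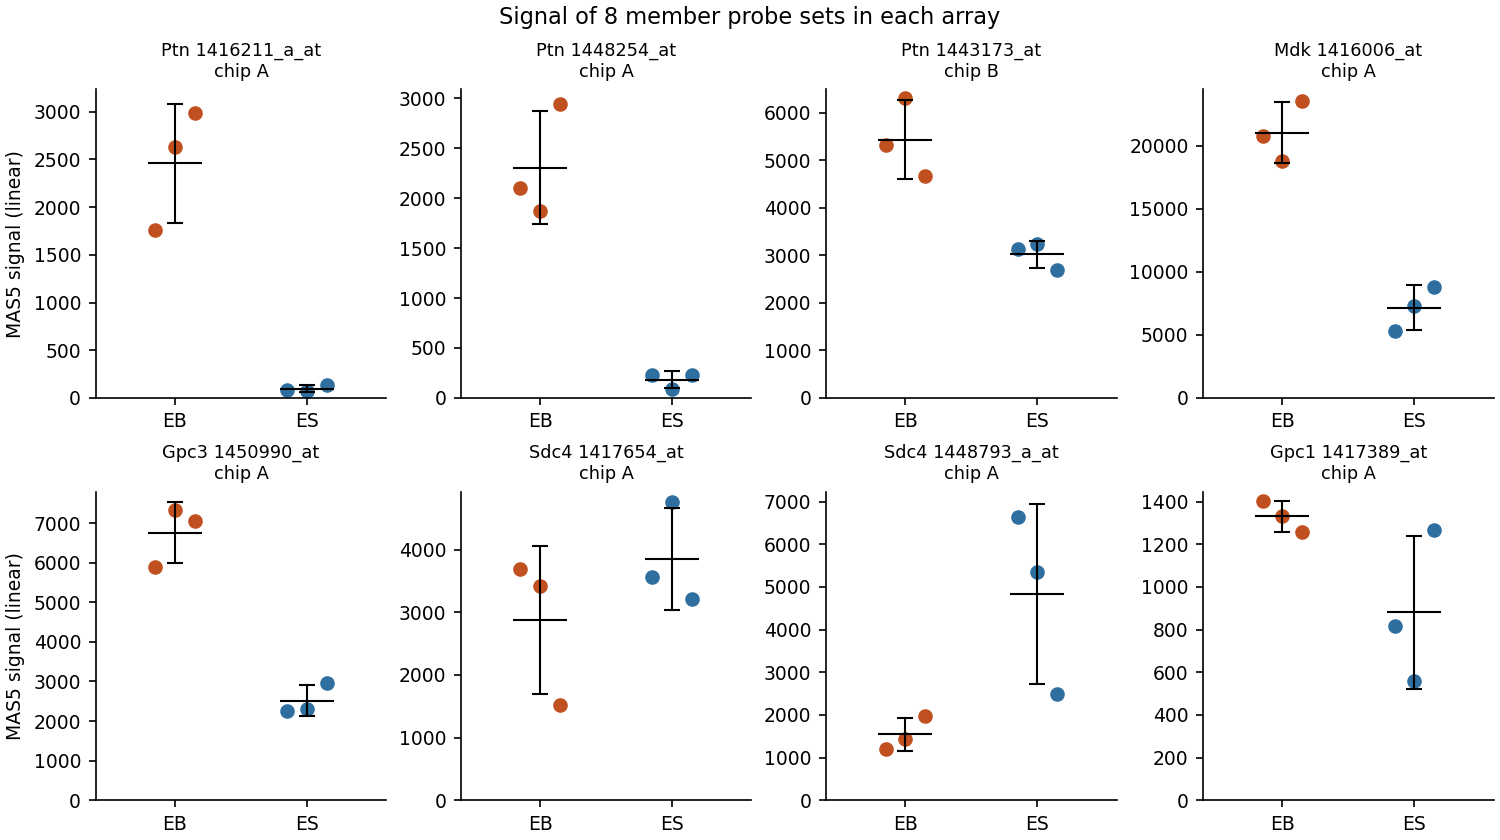
MAS5 signal (linear scale, from 0) of 8 member probe sets, with each array as a point, EB left and ES right, and the mean with its SD in black (n = 3 arrays each). Ptn 1416211_a_at lies between 1765 and 2984 in EB arrays and between 67.5 and 140.3 in ES arrays, Mdk and Gpc3 separate without overlap, and Sdc4 separates by 1448793_a_at and overlaps by 1417654_at.

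Ptprz1 and Alk, the receptors among the members, gave no call. Ptprz1 encodes a receptor tyrosine phosphatase with chondroitin sulfate chains, whose activity pleiotrophin is known to inhibit. Its probe set 1427019_at had 705, 535 and 401 in EB arrays, against 554, 792 and 345 in ES arrays. Probe set 1452284_at had 826, 405 and 240.4 in EB arrays, against 541, 454 and 351 in ES arrays. The groups overlapped by both, with log2 differences of -0.01 (95% interval from -0.74 to 0.73) and 0.00 (from -0.83 to 0.84). The dimmest, 1418690_at, had 229, 368 and 180.2 in EB arrays, against 361, 28.1 and 65.7 in ES arrays, a log2 difference of 0.61 with an interval from -0.32 to 1.53. These intervals leave room for a change of Ptprz1 in either direction.

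Alk, a receptor tyrosine kinase of the nervous system for which both ligands have been reported as activators, had 503, 476 and 328 in EB arrays, against 574, 609 and 654 in ES arrays. All 3 EB arrays were below all 3 ES arrays, as for 14.0% of all probe sets of chip A, but the log2 difference of -0.40 (interval from -1.01 to 0.20) did not pass (limma adjusted p = 0.433).

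Among the glypicans Gpc3 rose, while Gpc1 and Gpc4 did not pass the test. Gpc3 is a glypican of embryonic growth control whose loss causes an overgrowth syndrome in humans. It had 5887, 7338 and 7058 in EB arrays, against 2266, 2310.0 and 2969 in ES arrays. Its lowest EB signal was well above its highest ES signal. The means were 6761 ± 769.7 in EB and 2515 ± 394 in ES cells (SD, n = 3), a log2 difference of 1.38 ± 0.16 (SE) or 2.61-fold, with a limma adjusted p of 0.00222 that reached 0.0180 at most on leaving out an array.

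Gpc4, which lies beside Gpc3 on chromosome X with 107502 bases between the annotated genes (GRCm38.p6), was measured on both chips. On chip A it had 3157, 3208 and 2868 in EB arrays, against 2883, 2012 and 3426 in ES arrays. On chip B it had 3612, 3129 and 2668 in EB arrays, against 4509.7, 2781 and 5113 in ES arrays. The groups overlapped on both chips, and the log2 differences of 0.17 (interval from -0.26 to 0.61) and -0.34 (from -0.91 to 0.23) had opposite signs. Both intervals lie below the whole interval of Gpc3, from 1.02 to 1.74, but the difference between the genes was not tested. Gpc1 had 1400.4, 1334 and 1255 in EB arrays, against 815, 559 and 1267 in ES arrays. ES replicate 3 reached the EB range and the other ES arrays did not. Its log2 difference was 0.59 (interval from -0.02 to 1.19, limma adjusted p = 0.241).

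The syndecan probe sets went in different directions, and 1 of the 10 passed. Among all probe sets 6.3% passed in either direction on chip A and 10.7% on chip B. Sdc4, a syndecan of focal adhesions, fell by 1448793_a_at, with signals of 1210.0, 1442 and 1972 in EB arrays, against 6634, 5359 and 2500.4 in ES arrays. All EB arrays were below all ES arrays, as for 14.0% of all probe sets of chip A, although ES replicate 3 lay near the EB range. The means were 1541 ± 390.4 in EB and 4831 ± 2117 in ES cells, a log2 difference of -1.48 ± 0.32 (SE) or 2.80-fold lower in EB, with a limma adjusted p of 0.0276. The call was lost without EB replicate 1, 2 or 3 or ES replicate 1 or 2 (adjusted p up to 0.106), and without the intensity trend (adjusted p = 0.0686). Without ES replicate 3 it remained, at a log2 difference of -1.89. The other probe set of Sdc4, 1417654_at, had 3693, 3415 and 1522 in EB arrays, against 3567, 4766 and 3205 in ES arrays. There the groups overlapped, with only EB replicate 3 below all ES arrays, and the log2 difference was -0.48 (interval from -1.15 to 0.20, adjusted p = 0.401).

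Sdc1, the main syndecan of epithelia, had 4 probe sets on chip A with log2 differences between -0.52 and 0.80. By 1437279_x_at it had 2335, 2401 and 2401 in EB arrays, against 1849.6, 505.0 and 2229.6 in ES arrays, with ES replicate 2 far below the others. By 1448158_at it had 655, 1155 and 1031 in EB arrays, against 1397, 1167 and 1638 in ES arrays. The groups did not overlap by either of these, in opposite directions, and neither passed (limma adjusted p = 0.298 and 0.250). Of all probe sets of chip A 13.1% had all EB arrays above all ES arrays and 14.0% had them below. By 1415943_at it had 2547, 3814 and 2807 in EB arrays, against 2496, 2036 and 3140.3 in ES arrays. That probe set overlapped between the groups, with a log2 difference of 0.25 (interval from -0.22 to 0.71), and the dim 1415944_at stood at -0.11 (from -0.66 to 0.44).

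Sdc2, a syndecan of mesenchymal and neural cells, had 3 probe sets on chip A and 1 on chip B, and none passed. By 1448545_at it had 974, 672 and 1052 in EB arrays, against 769, 553 and 1087 in ES arrays. The log2 difference was 0.16 (interval from -0.48 to 0.80). By 1417012_at it had 182, 81.5 and 288 in EB arrays, against 884, 306 and 316 in ES arrays. There all EB arrays were below all ES arrays, as for 14.0% of all probe sets of chip A. The log2 difference was -0.93 (interval from -1.84 to -0.02, limma adjusted p = 0.218). The 2 remaining probe sets overlapped between the groups, 1417011_at with a log2 difference of 0.52 (interval from -0.54 to 1.57) and 1431474_at on chip B with 0.25 (from -0.89 to 1.40).

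**Figure D2:**
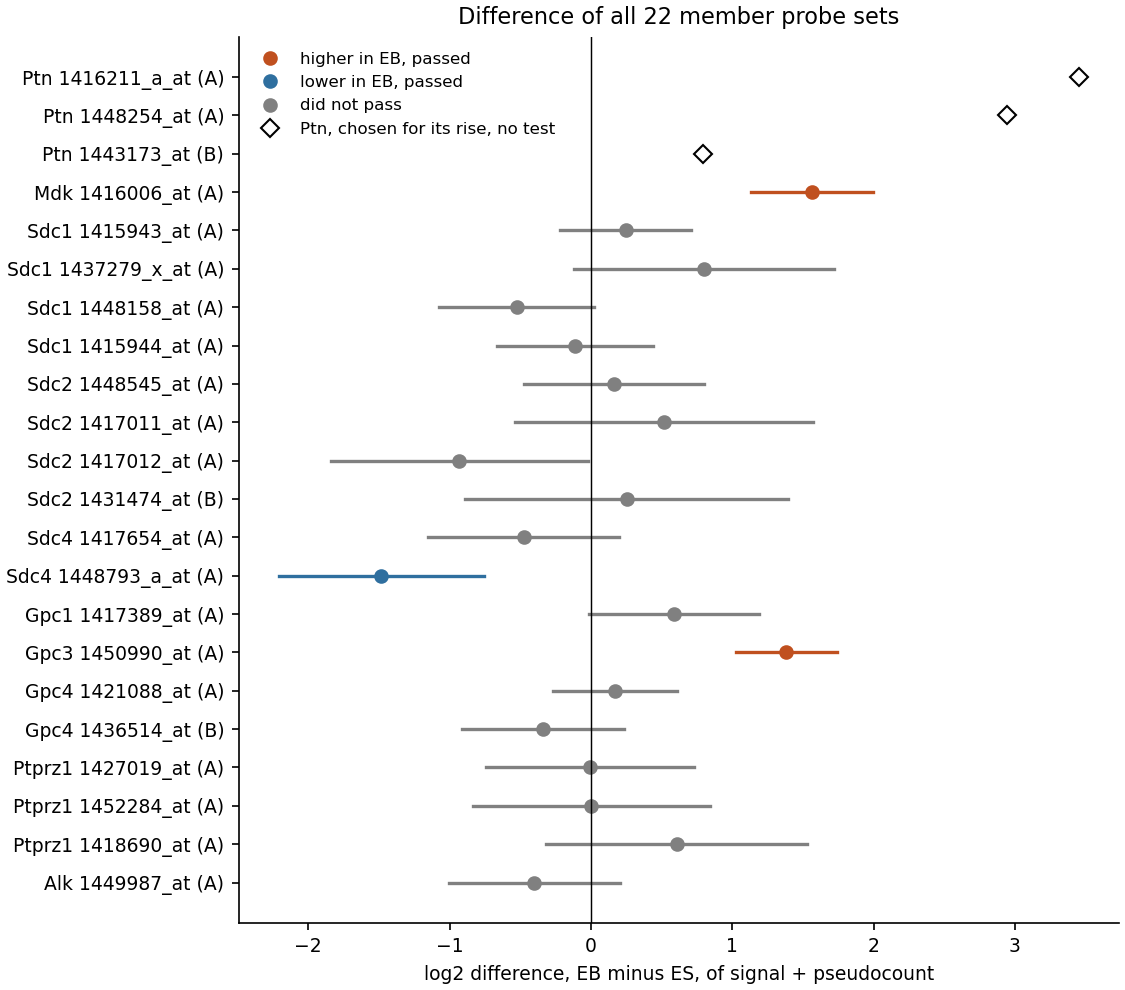
Log2 difference of signal + pseudocount, EB minus ES, for all 22 member probe sets (chip in brackets), as a point with its 95% interval from the limma fit. Mdk and Gpc3 lie right of 0 and Sdc4 1448793_a_at left of 0 among those that passed, the other 16 are grey, and the 3 Ptn probe sets are open diamonds without an interval because Ptn was chosen for its rise.

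Counted over the genes other than Ptn, 2 of 17 probe sets on chip A rose, 1 fell and 14 did not pass, against 3.39% and 2.91% of all probe sets of the chip, or 6.3% in either direction. Of the 2 probe sets on chip B 0 passed the limma test, against 5.78% higher and 4.91% lower among all of that chip. At an unadjusted p under 0.05 there were also 0 of the 2, against 28.1% of all. The median log2 difference of the 17 was 0.16, and that of all chip A probe sets was -0.05. On that chip 3 of the 17 had all EB arrays above all ES arrays and 4 had them below, against 13.1% and 14.0% of all. Of the 16 probe sets that did not pass on either chip, 9 had an interval that reached beyond 1 on the log2 scale, so a change of that size was not excluded for them. These genes were grouped with earlier results known, and the counts describe them only.

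Ptn, Gpc3 and Sdc4 had a sequence in the RefSeq promoter table, which held 7 of the 10 genes, and their 250 bases before the annotated start (GRCm38.p6, gene strand, 5′ to 3′) are shown for those of the genes that differed between the states and had an entry. Mdk, which also differed, had none in the table. Capitals mark GGGCGG, the GC box bound by Sp factors, on either strand.
Ptn, chr6:36810180-36810429, minus strand: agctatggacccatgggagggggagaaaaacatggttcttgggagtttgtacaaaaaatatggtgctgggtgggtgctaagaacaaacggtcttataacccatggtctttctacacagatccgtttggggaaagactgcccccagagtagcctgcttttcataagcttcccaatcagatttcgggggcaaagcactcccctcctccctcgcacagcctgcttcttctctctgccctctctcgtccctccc
Gpc3, chrX:52613975-52614224, minus strand: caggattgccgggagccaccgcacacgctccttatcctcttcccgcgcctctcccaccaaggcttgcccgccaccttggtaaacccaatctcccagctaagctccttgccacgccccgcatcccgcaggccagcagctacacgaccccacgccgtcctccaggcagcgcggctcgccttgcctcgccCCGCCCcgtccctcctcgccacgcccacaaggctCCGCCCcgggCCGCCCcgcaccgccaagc
Sdc4, chr2:164443189-164443438, minus strand: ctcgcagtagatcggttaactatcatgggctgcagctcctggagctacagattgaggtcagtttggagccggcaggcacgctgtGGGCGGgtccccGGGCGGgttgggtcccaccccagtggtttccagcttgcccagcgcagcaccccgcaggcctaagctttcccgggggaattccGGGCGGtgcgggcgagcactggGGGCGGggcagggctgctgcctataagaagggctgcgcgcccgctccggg
The Ptn sequence had a G and C content of 52.0% and 5 CpG dinucleotides, near the medians of 52.4% and 6 over 32851 promoters, and no GC box. The Gpc3 sequence had 71.6%, 25 CpG dinucleotides and 3 GC boxes, and the Sdc4 sequence 68.0%, 19 and 4. Sdc1, Gpc4, Ptprz1 and Alk, which had no call, had 66%, 68.4%, 71.6% and 65.2%, with 10, 18, 22 and 23 CpG dinucleotides. They held 3, 1, 2 and 1 GC boxes. All of these were richer in these features than Ptn, so this was not particular to the genes that differed. A GC box stood in 32.7% of all promoters. None of the 7 member promoters held TATAAA, ATGCAAAT (the octamer of POU factors) or CTTTGAT (a TCF/LEF motif) on either strand, and these stood in 12.4%, 1.6% and 3.21% of all promoters. A match or its lack describes these letters in this window only. For Alk the window lay inside the annotated gene, and for Ptprz1 most of it lay past the gene start.

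The genes with a chip A profile closest to that of Ptn 1416211_a_at were Crabp2, Frzb, Mest, Cdh2 and Gas1. They were the 5 with the smallest root mean square distance over the 6 arrays, after centring each profile of log2(signal + pseudocount) on its mean, among 10436 probe sets of other genes with a mean signal above the chip median. The distance was 0.26 for Crabp2, which carries retinoic acid inside cells, 0.38 for Frzb, a secreted WNT antagonist, and 0.43 for the imprinted gene Mest. It was 0.43 for Cdh2, the N-cadherin gene, and 0.46 for Gas1, a Hedgehog co-receptor, while the other chip A probe set of Ptn was at 0.37. Their log2 differences lay between 2.60 for Gas1 and 4.13 for Frzb. A profile close to that of Ptn has to be higher in EB, so these differences come from the choice and are given as a description.

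**Figure D3:**
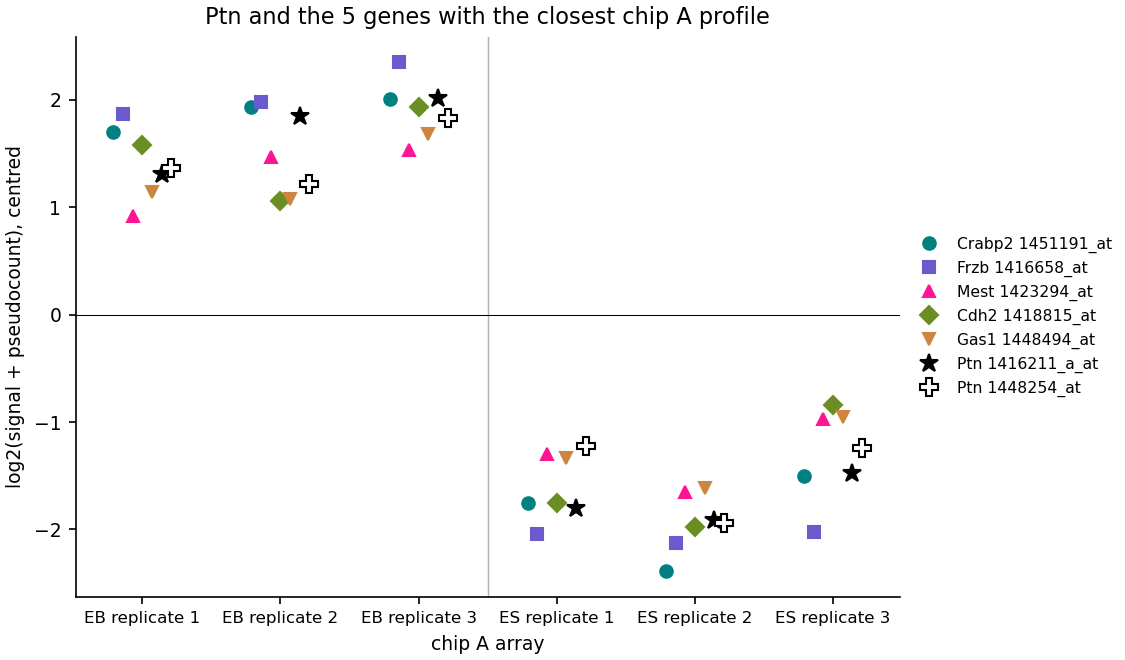
Log2(signal + pseudocount), centred on the mean of each probe set, on the 6 chip A arrays, EB left and ES right, for both chip A probe sets of Ptn (black) and the 5 genes with the closest profile. All points of the EB arrays lie above 0 and all points of the ES arrays below 0.

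Other genes known to act with pleiotrophin and midkine were mostly without a call. Of 20 measured receptors and partners 2 rose, 1 fell and 17 did not pass the limma test, against 4.42% higher and 4.38% lower among 18193 genes with 1 probe set each. The median log2 difference of the 20 was 0.05, and that of all genes -0.06. Notch2, a receptor that midkine has been reported to bind, stood at 2885 ± 1043 in EB and 1026 ± 455 in ES cells (SD, n = 3, log2 difference 1.38, adjusted p = 0.0420). Its call was lost without EB replicate 1 or 2 or ES replicate 1 or 2, with adjusted p values up to 0.161. Ctnnb1, the β-catenin gene, whose product is a substrate of Ptprz1, rose to 30158 ± 1122 in EB, against 18185 ± 1697 in ES cells (adjusted p = 0.0186, up to 0.0903 without EB replicate 1, 2 or 3 or ES replicate 1). Itga6, an integrin chain, fell to 3269 ± 791 in EB, against 5986 ± 668 in ES cells (adjusted p = 0.0266, up to 0.107 without EB replicate 2 or 3 or ES replicate 1 or 2). Without the intensity trend 0 of these 3 genes passed. Over all 64 probe sets of the list 2 rose, and 0 genes were called both ways. The other probe sets of Notch2 and Ctnnb1 therefore did not pass. Ncl, a nucleolar protein reported to bind both ligands at the surface of cells, was the brightest without a call, with a log2 difference of -0.14 (interval from -0.61 to 0.33).

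Further heparan sulfate proteoglycans and proteins that bind them gave 1 rise, 1 fall and 17 genes without a call among 19 measured. Among 18193 genes with 1 probe set each 4.42% were higher and 4.38% lower, so these counts are near the share of all genes. The median log2 difference of the 19 was -0.06. Col18a1, a collagen of basement membranes that carries heparan sulfate, fell to 5039 ± 1142 in EB, against 13725 ± 337 in ES cells (limma adjusted p = 0.00218, n = 3). Sdcbp, the gene of syntenin, which binds the tails of syndecans inside the cell, rose to 7427 ± 496 in EB, against 4474 ± 206 in ES cells (adjusted p = 0.0135, up to 0.0628 without EB replicate 2 or 3). It did not pass with the fluidics position as a block or without the intensity trend. Over all 42 probe sets of the list 2 rose, 1 of Sdcbp and 1 of Gpc6, and 0 genes were called both ways. The other probe sets of Sdcbp therefore did not pass. Hspg2, the perlecan gene, did not pass, at 4947 ± 1243 in EB and 8349.5 ± 2238 in ES cells (log2 difference -0.73, adjusted p = 0.106), and passed without ES replicate 3 (adjusted p = 0.0252). Gpc6, a further glypican, named after its values were seen, had 5 probe sets. By 1428774_at on chip B it had 3981, 4344 and 4353 in EB arrays, against 1481, 1585 and 2140.1 in ES arrays, a log2 difference of 1.18 (adjusted p = 0.0123). The other 4 did not pass, with log2 differences from -0.34 to 1.76.

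Enzymes that build and edit heparan sulfate gave 1 call among 28 measured genes, a rise, and their median log2 difference was -0.10. Among 18193 genes with 1 probe set each 4.42% were higher and 4.38% lower, so the enzymes did not exceed the share of all genes. Papss1, which makes the sulfate donor of the chains, rose to 2492 ± 548 in EB, against 1047 ± 198 in ES cells (limma adjusted p = 0.0157, n = 3, and 0.0780 without EB replicate 1), and did not pass with the fluidics position as a block. Sulf1, an enzyme that removes sulfate groups outside the cell, was the brightest of the other 27, at 11102 ± 1842 in EB and 10782 ± 2070.3 in ES cells on chip B (log2 difference 0.05, interval from -0.41 to 0.50).

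**Figure D4:**
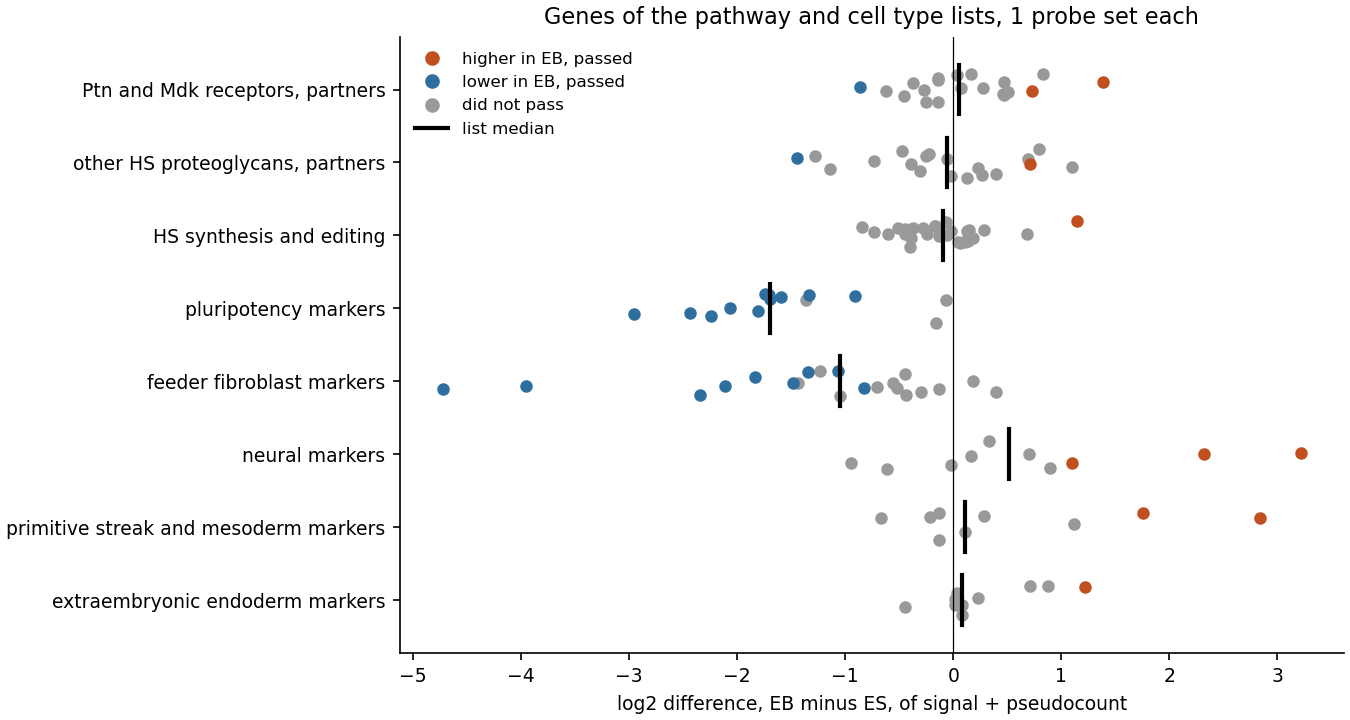
Log2 difference of signal + pseudocount, EB minus ES, for each gene of 3 pathway lists and 5 cell type marker lists, 1 probe set per gene, with the list median as a bar. The pathway lists scatter around 0 with medians from -0.10 to 0.05, while the pluripotency and feeder fibroblast markers have medians of -1.70 and -1.05.

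Markers of other cell types also moved between the same arrays. Of 21 feeder fibroblast markers 9 fell in EB and 0 rose, against 4.38% lower and 4.42% higher among 18193 genes with 1 probe set each. Their summed signal ran from 11872 to 14751 in EB arrays and from 28209 to 45845 in ES arrays. Col1a1, the main collagen of fibroblasts, had the largest fall, to 48.6 ± 20.2 in EB, against 4923 ± 1554 in ES cells (limma adjusted p = 1.41e-04). The neural markers gave 3 rises among 10, with a summed signal from 10604 to 19462 in EB arrays and from 7390 to 7859 in ES arrays. Most of the highest sum, in EB replicate 3, came from Zic1 (6324) and Sox11 (5596). Of the 10, 4 had all EB arrays above all ES arrays and 2 had them below, against 13.1% and 14.0% of all probe sets of chip A. Primitive streak and mesoderm markers gave 2 rises among 9, with sums from 8019 to 16423 in EB arrays and from 5545 to 6729 in ES arrays. Extraembryonic endoderm markers gave 1 rise among 10, with sums from 5216 to 7562 in EB arrays and from 3784 to 4933 in ES arrays. The list medians were 0.51, 0.11 and 0.08 on the log2 scale. The largest rises were in Zic1, of the neural plate (log2 difference 3.22), Aplnr, of nascent mesoderm (2.84), and Foxa2, of endoderm (1.22). The call of Zic1 was lost without EB replicate 2 or 3 or ES replicate 1 or 2 (limma adjusted p up to 0.0761) and with the chip median as pseudocount (0.0522). That of Foxa2 was lost without EB replicate 1 or 3 or ES replicate 1 (up to 0.0781) and with the fluidics position as a block (0.0557). Pax3, Sox1, Eomes and Dab2 also rose, but only by a probe set that did not stand for them. No gene of these 3 lists fell by the test. The lowest log2 differences, in genes named after their values were seen, were -0.94 for the neuronal gene Dcx, -0.67 for Msgn1, of presomitic mesoderm, and -0.44 for Amn, of visceral endoderm. Of the extraembryonic endoderm markers 2 were below the pseudocount on all chip A arrays, and 2 feeder markers, Col1a1 among them, were below it on all EB arrays. The part of the feeder markers in the falls of Sdc4, Itga6 and Col18a1, and that of the other lists in the rises of Ptn, Mdk and Gpc3, was not tested.

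On chip A 2 fluidics positions, the wash modules through which arrays passed, held an array of each group. Between EB replicate 2 and ES replicate 1 the log2 difference was 3.65 and 2.44 for Ptn 1416211_a_at and 1448254_at, 1.80 for Mdk, 1.64 for Gpc3 and -2.10 for Sdc4 1448793_a_at. Between EB replicate 3 and ES replicate 2 these were 3.93, 3.77, 1.67, 1.56 and -1.38. Since the groups did not overlap for these probe sets, the direction of each pair was fixed, and only the sizes are informative. With the position as a block, EB replicate 1 and ES replicate 3 were each alone in a position, so that fit rested on these 2 pairs. Its limma adjusted p was 0.00136 for Mdk, 0.00280 for Gpc3 and 0.00582 for Sdc4 1448793_a_at. For Sdc4 the array so set aside, ES replicate 3, was the ES array nearest to EB, so its smaller value is not a further check on all arrays.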

How the data were processed

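Total RNA of 6 samples was hybridized to both chips, giving 12 arrays. The deposited tables hold a linear intensity for each probe set, made with MAS5 by the authors per the submitters' processing notes (version, background and scaling settings not given in the sources used here). With 2% of values trimmed at either end, array means were near 1500.5 on chip A and 1500.2 on chip B, so arrays had been scaled before deposit, and no further normalization was applied. The scan day, chip lot and fluidics position came from the deposited experiment files, whose other settings were not used. No detection calls were used here.

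Gene names came from GEO's platform annotation, and 0 member symbols differed from the mouse reference table. On either chip 64 controls were dropped. EB was set against ES separately by chip in limma 3.58.1, run under R 4.3.3 with lmFit and a trended eBayes that had been tested on simulated data, on log2(intensity + pseudocount), the pseudocount being the 20th percentile of the chip. In the gene lists 1 probe set represented a gene, preferring chip A, then an ID not ending in _x_at, then the highest mean. The members and gene lists were chosen with earlier results of these data known. Besides the members, the text names the called genes of each pathway list with the 3 largest rises and falls and its brightest uncalled gene, the largest rise and fall among the called genes of each marker list, Pou5f1 and Zfp42, and the 5 genes nearest to Ptn. The uncalled pluripotency markers, Sox11 and the marker genes called only by another probe set were named after seeing the data. List genes without a single-gene probe set, among them Alkal1 and Alkal2, ligands of Alk, were not analysed here.

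Alternatives were blocks for the replicate number, scan day and fluidics position, eBayes without a trend, removal of dim probe sets, quantile or median scaling, a pseudocount of 1 or equal to the chip median, all probe sets of list genes, and leaving out each array. Pairs of arrays within a fluidics position were added after seeing the data.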

Additional observations from a re-analysis of the deposited data

How the results depend on the processing

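Mdk and Gpc3 kept their call in every alternative that had a test, and the count of members that rose on chip A was 2 on leaving out each array, with 0 to 1 that fell. On chip B 0 members passed with any array left out. For Ptn, leaving out an array gave log2 differences from 3.30 to 3.66, 2.70 to 3.07 and 0.68 to 0.89 by 1416211_a_at, 1448254_at and 1443173_at. For the first, a pseudocount of 1 gave 4.68, the chip median as pseudocount 2.07, the fluidics block 3.79 and the pair of EB replicate 3 and ES replicate 2 3.93. For 1448254_at the pseudocounts gave 3.74 and 1.85 and the pairs 2.44 and 3.77.

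Without the intensity trend 0 members fell on chip A, receptors and partners gave 0 rises and 0 falls, further proteoglycans 0 rises, and chip A 425 higher and 419 lower probe sets, against 767 and 658. Scan day as a random block gave 1221 and 1022, and 2 rises and 2 falls of further proteoglycans. That fit could not separate the day from the state, so its larger counts and the calls kept in it are no check on the scan day. Receptors and partners gave 1 rise with the chip median as pseudocount and 1 with quantile scaling, and 4 falls with all probe sets counted. With all probe sets, heparan sulfate enzymes gave 2 rises, and further proteoglycans 2 rises and 2 falls. Those proteoglycans gave 2 rises with quantile scaling, and 2 falls with the dim filter. The fluidics block gave it 0 rises and 2 falls, the enzymes 0 rises and the feeder markers 5 falls.

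The shared replicate numbers did not pair the samples: correlations of same-numbered deviations lay between -0.0657 and 0.0426 on chip A and between -0.0297 and -0.0173 on chip B. With the replicate block, 0 receptors and partners rose (Notch2 adjusted p = 0.0623, Ctnnb1 0.0547), 2 further proteoglycans fell, and chip A had 588 higher and 548 lower probe sets.

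Leaving out an array gave 0 to 2 rises and 0 to 1 falls of receptors and partners, 0 to 2 and 1 to 3 of further proteoglycans, 0 to 1 and 0 to 1 of the enzymes, and 4 to 9 falls of feeder markers. It gave 206 to 1161 higher and 228 to 931 lower probe sets on chip A, and 502 to 949 and 430 to 857 on chip B. Log2 differences near 0 changed sign. Ptprz1 1427019_at was 0.065 with median and 0.066 with quantile scaling, and -0.25 to 0.22 without an array. Ptprz1 1452284_at was -0.49 with the fluidics block, -0.033 with a pseudocount of 1, and -0.36 to 0.32 without an array. Sulf1 was -0.0057 with median scaling and -0.11 to 0.16 without an array. The ranges without an array were -0.031 to 0.33 for Gpc4 1421088_at, -0.33 to 0.022 for Ncl, -0.34 to 0.57 for Sdc2 1431474_at and -0.042 to 0.37 for Sdc2 1448545_at. The cause of these changes was not tested. Signals below the pseudocount, as for Ptn in ES cells, leave its fold without a firm size.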

Other observations

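Some genes of the pathway lists passed the limma test only by a probe set that did not stand for them, and they are named here after their values were seen. Ptprf, a receptor phosphatase of the LAR family, had log2 differences of -1.02 (adjusted p = 0.0253) by 1420841_at and -1.23 (adjusted p = 0.00295) by 1420843_at, and of -0.26 (adjusted p = 0.566) by 1420842_at, the probe set that stood for it. Hs3st3b1, a heparan sulfate 3-O-sulfotransferase, had a log2 difference of 2.19 (adjusted p = 0.00686) by 1442816_at, while its other probe sets did not pass. Sdc3, the syndecan of neural tissue, had log2 differences of 0.21, 0.73 and -0.25 by 3 probe sets, and none passed.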
